A study of Mus musculus with 17 samples.

Results

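A set of 6 genes of the ion pumps and cotransporters that set sodium, potassium and chloride inside a cell were followed in mouse bone marrow-derived macrophages: the Na,K-ATPase beta subunits Atp1b1 and Atp1b3, the cation chloride cotransporters Slc12a2, Slc12a4 and Slc12a7, and the kinase Wnk1. They are 6 of the 55401 gene identifiers in the count table and were taken by name. The other genes of their families were read from a list of 65 symbols that includes them and covers pump subunits, SLC12 cotransporters, sodium-proton exchangers, the WNK pathway and bicarbonate transporters. All 65 symbols matched an identifier.

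Total RNA was counted in 17 libraries in 6 groups. Macrophages from C57BL/6J mice gave 3 control libraries, 3 libraries of cells in medium conditioned by B16F10 cells, a mouse melanoma line, 3 of cells in that medium with KCl and 2 of cells in that medium with NaCl, each salt at a final 40 mM. Cells of Kcnj2f/f mice (floxed, 3 libraries) and of Lyz2-Cre-Kcnj2f/f mice (knockout, 3 libraries) were in conditioned medium with KCl labelled isotonic. Treatment lasted 6 hours, so all groups but the control share conditioned medium. Kcnj2 is the gene of the potassium channel Kir2.1, an inward rectifier, and Lyz2-Cre deletes a floxed allele in myeloid cells. What the control cells received, how the medium was kept isotonic and whether replicates came from separate animals are not stated in the labels. For the isotonic groups no KCl concentration is recorded here, so it may differ from 40 mM. Floxed cells without conditioned medium or without KCl are not among the groups, and the floxed strain is found only in isotonic KCl.

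The Na,K-ATPase moves sodium out of the cell and potassium in at the cost of ATP. Its alpha subunit carries the catalytic cycle, its beta subunit is needed to fold the pump and bring it to the surface, and FXYD proteins tune it. The sodium gradient drives NKCC1 (Slc12a2), which loads the cell with sodium, potassium and chloride and helps shrunken cells regain volume. The KCl cotransporters KCC1 (Slc12a4) and KCC4 (Slc12a7) carry potassium and chloride, normally outward, and help swollen cells lose volume. WNK1 senses chloride and crowding and acts through the kinases SPAK (Stk39) and OSR1 (Oxsr1), which activate NKCC1 and inhibit the KCl cotransporters.

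Promoter windows of 3 genes are shown because Atp1b3 and Slc12a4 moved in opposite directions with KCl while Wnk1 changed with conditioned medium. Each runs over the 250 bases before the RefSeq start site, written 5′ to 3′ on the minus strand of GRCm38.p6, with GC boxes (GGGCGG, or its reverse complement CCGCCC) in capitals. The windows are chr9:96364432-96364681 for Atp1b3, chr8:105966116-105966365 for Slc12a4 and chr6:120038656-120038905 for Wnk1.
Atp1b3: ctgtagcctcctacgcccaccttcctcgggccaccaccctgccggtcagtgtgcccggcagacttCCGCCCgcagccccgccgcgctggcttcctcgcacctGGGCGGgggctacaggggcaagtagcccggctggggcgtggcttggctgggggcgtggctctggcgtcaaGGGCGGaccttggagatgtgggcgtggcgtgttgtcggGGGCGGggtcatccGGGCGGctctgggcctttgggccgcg
Slc12a4: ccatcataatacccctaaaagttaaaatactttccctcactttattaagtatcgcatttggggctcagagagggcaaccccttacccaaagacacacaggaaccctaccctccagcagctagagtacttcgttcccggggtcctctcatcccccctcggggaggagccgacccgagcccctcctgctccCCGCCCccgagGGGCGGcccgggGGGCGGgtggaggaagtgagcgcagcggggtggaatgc
Wnk1: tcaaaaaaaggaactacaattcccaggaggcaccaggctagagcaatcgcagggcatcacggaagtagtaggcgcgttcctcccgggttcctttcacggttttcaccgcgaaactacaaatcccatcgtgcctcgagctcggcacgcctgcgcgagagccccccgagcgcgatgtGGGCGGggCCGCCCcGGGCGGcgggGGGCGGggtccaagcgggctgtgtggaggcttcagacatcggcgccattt
In GENCODE M21 the last 11 bases of the Atp1b3 window and the last 17 of the Wnk1 window lie inside the gene. The Slc12a7 window ends at a RefSeq start site 30566 bases from the GENCODE start and lies wholly inside the GENCODE gene. Windows of 5 of the 6 genes were examined. Slc12a2 was left out, so nothing is said of its promoter. All 5 held a GC box, against 32.7% of the 32851 windows of this length in the RefSeq table, with 5 copies in Atp1b3, 4 in Wnk1, 3 in Slc12a4, 3 in Slc12a7 and 2 in Atp1b1. The letters TGGAAA, the core of the element bound by the hypertonicity factor NFAT5, were in none of the 5 windows on either strand, and in 18.6% of all windows. The TATA variant TATATA was in the Atp1b1 window alone among the 5 and in 5.25% of all windows. None of the 5 held TATAAA (12.4% of all windows) or the E-box CACGTG (6.02%). The motifs shown do not overlap, and these matches describe letters only.

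Levels below are CPM, a count relative to its library total, scaled by TMM factors over all 17 libraries. The shallowest library held 13503869 counts and the deepest 19391623. A gene with no count is below 3 counts, or 0.222 CPM in the shallowest library, a limit of counting error alone. Kcnj2 stood at 139 to 173 CPM in the floxed libraries and at 19.7 to 29.4 CPM in the knockout libraries, with no overlap (edgeR quasi-likelihood adjusted p = 0.015). Summed macrophage markers (8 of 8 detected) stood at 25300 to 29200 CPM in every group except the knockout, at 12400 to 13600 CPM. Most of this sum was Lyz2, the locus that carries the Cre. Without Lyz2 the control libraries held 4100 to 4520 CPM and the KCl libraries 3900 to 5920 CPM. The sum was higher in conditioned medium, from 6440 to 6730 CPM, and after NaCl, at 6420 and 6530 CPM. It was 4420 to 7060 CPM in the floxed and 4990 to 6040 CPM in the knockout libraries, so these markers moved with the groups, and their part in the results below was not tested. Libraries within the KCl, floxed and knockout groups differed in length slope, the slope of a gene's log2 CPM deviation on the log2 of its exon length. The slope was 0.03 to 0.14 in the control, conditioned-medium and NaCl libraries, -0.11 to 0.01 with KCl, -0.19 to 0.13 in the floxed and -0.17 to -0.01 in the knockout libraries. In such bulk libraries fewer cells of a type and less RNA per cell cannot be told apart.

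**Figure D1:**
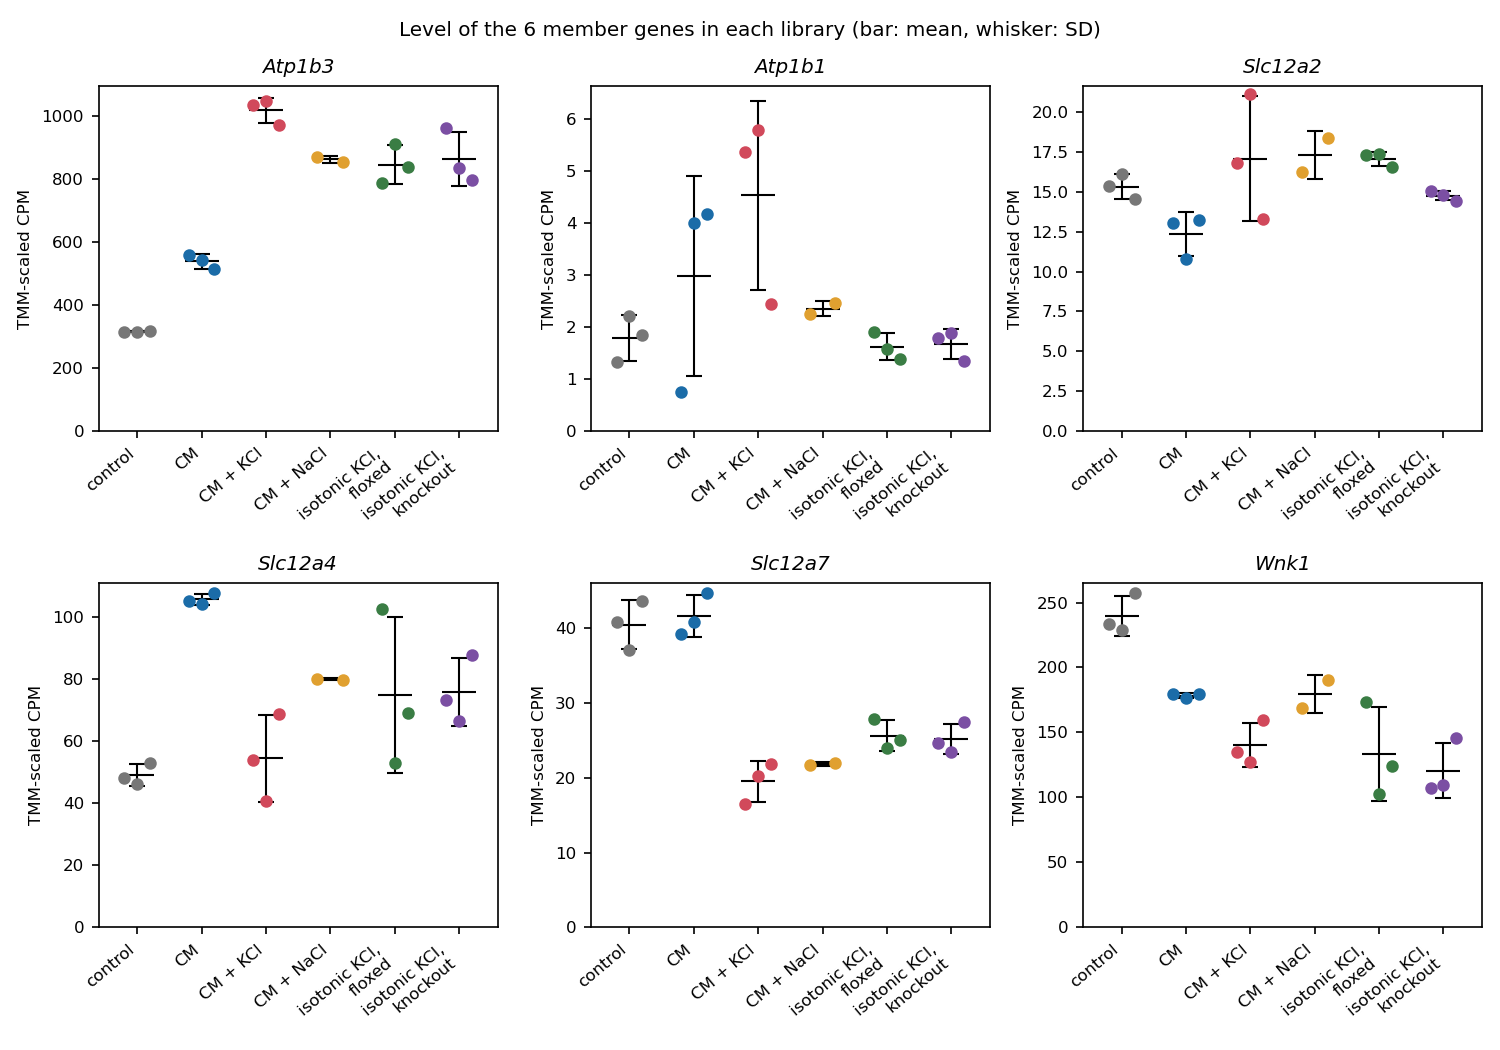
Level of each gene in every library, in TMM-scaled CPM (y axis, linear, from 0), for the 6 groups on the x axis (CM, conditioned medium). Points are libraries, horizontal bars group means and whiskers 1 SD. Atp1b3 rises from 314 to 318 CPM in control to 970 to 1045 CPM with KCl, and Slc12a7 is at 16.5 to 27.9 CPM in every library with added salt.

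Atp1b3, the main beta subunit of the pump in these cells, rose with conditioned medium and again with each salt. Its level was 314, 315 and 318 CPM in the control libraries and 559, 543 and 513 CPM in conditioned medium. With KCl it was 1034, 1045 and 970 CPM, and with NaCl 870 and 853 CPM. The libraries of these 4 groups did not overlap, in the order control, conditioned medium, NaCl and KCl. In isotonic KCl the floxed libraries stood at 787, 911 and 837 CPM and the knockout libraries at 959, 833 and 795 CPM, around the NaCl level and below every hypertonic KCl library.

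The fitted log2 fold change of Atp1b3 was 0.76 ± 0.07 (SE) for conditioned medium against control (3 against 3 libraries, edgeR quasi-likelihood adjusted p = 3.58e-07). Adding KCl to conditioned medium gave a further 0.91 ± 0.07 (adjusted p = 1.74e-07), a 1.88-fold rise. Adding NaCl gave 0.69 ± 0.07 (3 against 2 libraries, adjusted p = 1.64e-05), and isotonic KCl in floxed cells gave 0.65 ± 0.08 against conditioned medium (adjusted p = 0.00012), where strain and medium cannot be told apart. These 3 comparisons share the conditioned-medium libraries. Each of these 4 calls held under every alternative run. The direct difference between KCl and NaCl was small, 0.22 ± 0.07 (adjusted p = 0.0353), and it lost its call in 7 of 13 alternatives, among them the length slope as a covariate, where it was 0.09 (adjusted p = 0.747; the range over its alternatives was 0.00255 to 0.747). It was also lost without KCl replicate 1 (0.21) and without either NaCl library (0.22 without replicate 1 and 0.21 without replicate 2). KCl against isotonic KCl in floxed cells gave 0.27 ± 0.08 (adjusted p = 0.0258), a call kept in 9 of 14 alternatives. That call was lost without KCl replicate 1 (0.27), without floxed replicate 1 (0.22) and without floxed replicate 3 (0.28).

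Atp1b1, the beta subunit best known from kidney, heart and brain, was close to the lower end of what was tested. Its raw counts were 29, 52 and 45 in control, 12, 65 and 72 in conditioned medium, 80, 65 and 39 with KCl, and 43 and 43 with NaCl. In isotonic KCl they were 32, 21 and 21 (floxed) and 26, 29 and 21 (knockout). The conditioned-medium and KCl libraries spread over more than the difference between these groups, and no comparison within the C57BL/6J libraries passed the test (adjusted p 0.217 to 0.697). Conditioned-medium replicate 1 alone held 12 counts, and without it conditioned medium against control became 1.18 on the log2 scale (adjusted p = 0.0116; the range over alternatives was 0.0116 to 0.59) and isotonic KCl against conditioned medium became -1.33 (adjusted p = 0.0247; range 0.0247 to 0.53). With no low-count filter conditioned medium against control (0.70) and KCl against NaCl (0.89) were called. KCl against isotonic KCl in floxed cells gave 1.46 ± 0.46 (adjusted p = 0.0279). That call was lost in 5 of 14 alternatives, including without KCl replicate 1 (1.32) or 2 (1.27) and without floxed replicate 2 (1.46) or 3 (1.38). The exons of Atp1b1 overlap those of Nme7 on the other strand over 575 bases, Nme7 itself stood at 4.55 to 11.1 CPM, and the strand setting of the counts is not given in the sources used here, so reads of the pair may be mixed.

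Per kb of exon, Atp1b3 supplied nearly the whole beta subunit signal. Its share of the summed Atp1b1, Atp1b2 and Atp1b3 CPM per kb ran from 99.3% to 99.9% over the libraries. Mean Atp1b3 was 132 CPM per kb in control and 426 CPM per kb with KCl.

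Slc12a2 (NKCC1) was a low-expressed gene whose levels moved little. It stood at 15.4, 16.1 and 14.5 CPM in control, 13.1, 10.8 and 13.3 CPM in conditioned medium, 16.8, 21.1 and 13.3 CPM with KCl, and 16.2 and 18.4 CPM with NaCl. The floxed libraries were at 17.3, 17.4 and 16.6 CPM and the knockout libraries at 15.0, 14.8 and 14.5 CPM. Every library with added salt lay above every conditioned-medium library, the lowest KCl library by less than 0.1 CPM.

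Against conditioned medium, Slc12a2 rose by 0.44 ± 0.15 on the log2 scale with KCl (edgeR quasi-likelihood adjusted p = 0.0247), by 0.49 ± 0.17 with NaCl (adjusted p = 0.0404) and by 0.47 ± 0.14 with isotonic KCl in floxed cells (adjusted p = 0.0385). These comparisons share the conditioned-medium libraries. The direct difference between KCl and NaCl was -0.05 (95% interval -0.40 to 0.31) and that between KCl and isotonic KCl -0.01 (-0.30 to 0.29). The rises were sensitive to the setting. The KCl call held in 8 of 14 alternatives, and with the length slope as a covariate the value was 0.12 (adjusted p = 0.687; range over alternatives 0.00058 to 0.687). It was also lost without conditioned-medium replicate 2 (0.35), without KCl replicate 1 (0.45) and without KCl replicate 2 (0.28). The NaCl call held in 6 of 13 alternatives and was lost without any single library of either group (0.39 to 0.58). The isotonic call held in 6 of 14 alternatives and was lost without any conditioned-medium library (0.37 to 0.52) and without floxed replicate 2 (0.46) or 3 (0.50). Conditioned medium against control gave -0.32 ± 0.15 (adjusted p = 0.0894), and was called with total-count scaling (-0.66), with the slope covariate (-0.40) and with only the 2 groups in the fit (-0.32).

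Slc12a4 (KCC1) was higher in conditioned medium than in control, and with KCl it was lower again, near the control level on the TMM scale. KCl was not tested against control, and without TMM scaling the means were 48.8 CPM with KCl and 64.5 CPM in control. It stood at 48.1, 46.2 and 53.1 CPM in control and at 105, 104 and 108 CPM in conditioned medium, without overlap. With KCl it was 54.0, 40.8 and 68.8 CPM, below every conditioned-medium library and around the control libraries. With NaCl it was 80.3 and 79.9 CPM, between the KCl and the conditioned-medium libraries. In isotonic KCl the floxed libraries spread over 103, 53.2 and 69.1 CPM and the knockout libraries over 73.4, 66.6 and 87.9 CPM. The exons of Slc12a4 overlap those of the antisense gene Gm16156 on the other strand over 361 bases, so reads of this pair may also be mixed.

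The log2 fold change of Slc12a4 was 1.10 ± 0.14 for conditioned medium against control (edgeR quasi-likelihood adjusted p = 1.93e-05), a 2.15-fold rise, and -0.96 ± 0.14 for KCl against conditioned medium (adjusted p = 8.40e-05). Both calls held under every alternative run, and the second ranged from -1.16 to -0.55. NaCl against conditioned medium gave -0.40 ± 0.16 and missed the threshold (adjusted p = 0.0755), and so did isotonic KCl in floxed cells (-0.50 ± 0.20, adjusted p = 0.102). The NaCl difference was called in 3 of 13 alternatives (range of adjusted p 2.32e-05 to 0.262), with the length slope as a covariate (-0.58), with no low-count filter (-0.40) and with only the 2 groups in the fit (-0.39). Without floxed replicate 1, the library at 103 CPM, the isotonic difference was -0.79 (adjusted p = 0.00274; range over alternatives 0.00274 to 0.376). KCl against NaCl gave -0.57 ± 0.16 (adjusted p = 0.0162). With the length slope as a covariate that difference was 0.03 (adjusted p = 0.952; range 7.38e-06 to 0.952), and it lost its call without KCl replicate 1 (-0.56) and without either NaCl library (-0.58 and -0.57).

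Slc12a7 (KCC4) did not follow Slc12a4 in conditioned medium but fell with both salts. Its level was 40.8, 37.1 and 43.6 CPM in control and 39.3, 40.9 and 44.7 CPM in conditioned medium, which overlapped. It was 16.5, 20.2 and 21.9 CPM with KCl and 21.7 and 22.0 CPM with NaCl. The floxed libraries were at 27.9, 24.0 and 25.0 CPM and the knockout libraries at 24.7, 23.5 and 27.5 CPM. Every library with added salt was below every control and conditioned-medium library, and the isotonic libraries lay above the hypertonic ones.

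Slc12a7 fell by 1.10 ± 0.11 on the log2 scale with KCl against conditioned medium (edgeR quasi-likelihood adjusted p = 3.04e-06), to 0.466 of its level. It fell by 0.92 ± 0.12 with NaCl (adjusted p = 0.000105) and by 0.70 ± 0.11 with isotonic KCl in floxed cells (adjusted p = 0.000898), again against the same conditioned-medium libraries. These 3 calls held under every alternative run. KCl and NaCl did not differ by the test (-0.18, 95% interval -0.45 to 0.09, adjusted p = 0.291). KCl was lower than isotonic KCl in floxed cells by the test (-0.39 ± 0.12, adjusted p = 0.0191), where strain and medium cannot be told apart. That call was kept in 11 of 14 alternatives and lost without KCl replicate 1 (-0.27) or floxed replicate 1 (-0.33). Conditioned medium against control gave 0.03 (95% interval -0.19 to 0.26), and with total-count scaling -0.30 (adjusted p = 0.0362; range over alternatives 0.0362 to 1).

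Per kb of exon, Slc12a4 was the most abundant of the 3 cotransporters in every group by mean. In conditioned medium it stood at 24.8 CPM per kb, against 3.29 for Slc12a7 and 1.13 for Slc12a2. With KCl the means were 12.7 CPM per kb for Slc12a4, 1.54 for Slc12a7 and 1.56 for Slc12a2, so the 2 last, apart in conditioned medium, lay within each other's library range. The exon length used joins all annotated exons of a gene, from 11 transcripts for Slc12a7 and 2 for Slc12a2. Which transcripts these cells make was not tested, so comparisons per kb between genes depend on this length.

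Wnk1, the kinase upstream of both cotransporter arms, was highest in control and lower in conditioned medium. Its level was 233, 229 and 257 CPM in control, 179, 176 and 179 CPM in conditioned medium, 135, 127 and 160 CPM with KCl, and 169 and 190 CPM with NaCl. The floxed libraries stood at 173, 103 and 124 CPM and the knockout libraries at 107, 110 and 146 CPM. The control libraries lay above all others, the KCl libraries lay below those of conditioned medium and NaCl, and the isotonic libraries overlapped those with KCl.

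Wnk1 fell by 0.43 ± 0.09 on the log2 scale in conditioned medium (edgeR quasi-likelihood adjusted p = 0.00134), a call that held under every alternative run. With KCl it fell by a further 0.35 ± 0.09 (adjusted p = 0.00597), which held in 13 of 14 alternatives. The exception was the length slope as a covariate, where the value was -0.08 (adjusted p = 0.533; range over alternatives 2.77e-05 to 0.533). NaCl against conditioned medium gave 0.02 (95% interval -0.21 to 0.24). KCl was lower than NaCl by the test (-0.37 ± 0.10, adjusted p = 0.0174), but with the length slope as a covariate the difference was 0.03 (adjusted p = 0.93; range 8.26e-05 to 0.93). It was also lost without KCl replicate 1 (-0.34) and without NaCl replicate 2 (-0.28). Isotonic KCl in floxed cells against conditioned medium gave -0.42 ± 0.16 (adjusted p = 0.0885), and -0.65 without floxed replicate 1 (adjusted p = 0.00195; range 0.00195 to 0.343). It was also called with the slope covariate, at -0.17.

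**Figure D2:**
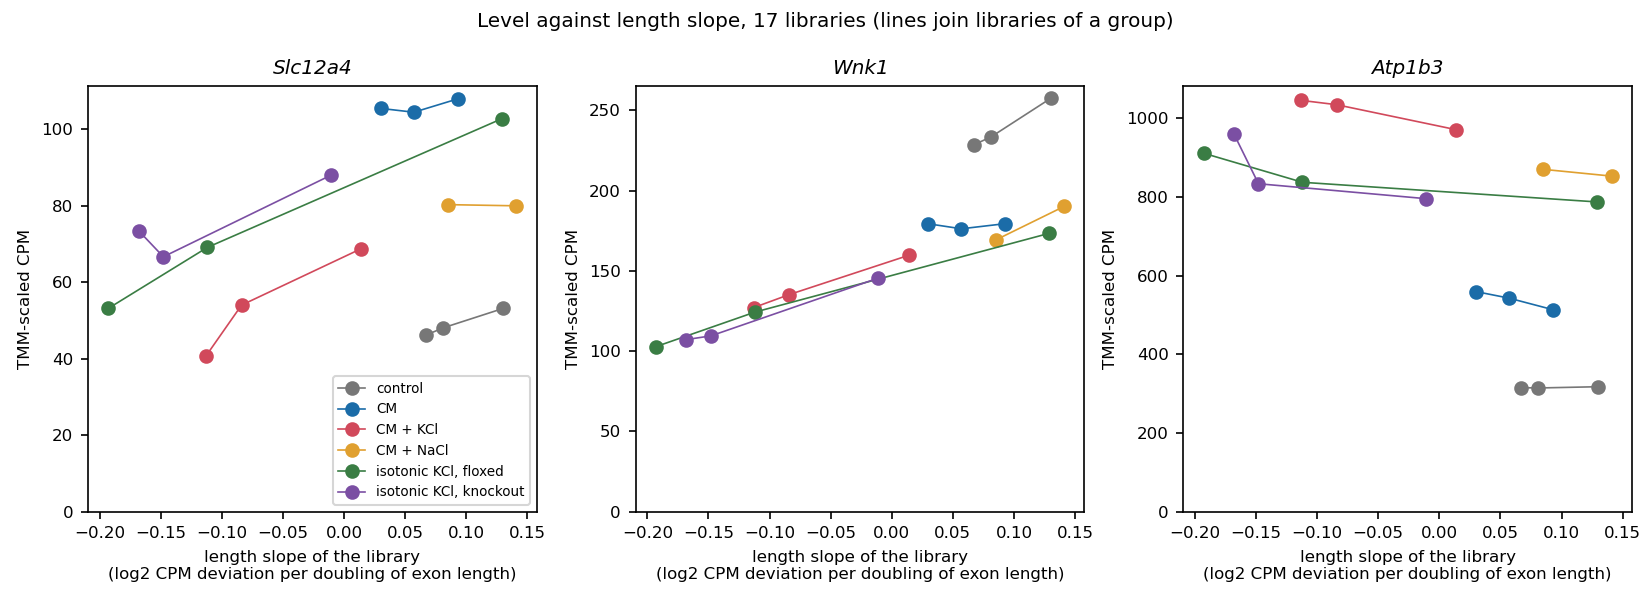
Level of Slc12a4, Wnk1 and Atp1b3 (y axes, TMM-scaled CPM, linear, from 0) against the length slope of each of the 17 libraries (x axis, log2 CPM deviation per doubling of exon length). Points are libraries and lines join those of a group. Within the KCl group Slc12a4 runs from 40.8 to 68.8 CPM and Wnk1 from 127 to 160 CPM in the order of the slope, and Atp1b3 runs the other way.

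The spread of Slc12a4 and Wnk1 inside the KCl and floxed groups went with the length slope of the libraries. With KCl the slopes of replicates 1, 2 and 3 were -0.08, -0.11 and 0.01, and both genes were lowest in replicate 2 and highest in replicate 3. In the floxed group the slopes were 0.13, -0.19 and -0.11, and both genes were highest in replicate 1 and lowest in replicate 2. Among the knockout libraries, at -0.17, -0.15 and -0.01, both were highest in replicate 3. Wnk1 followed the order of the slope there, but Slc12a4 was lowest in replicate 2 and did not. Atp1b3 ran the other way in the KCl, floxed and knockout groups. It was highest in replicate 2 with KCl and in the floxed group, and in replicate 1 of the knockout group. The slope is confounded in part with the groups, since its value was below 0 in 7 of the 9 KCl and isotonic libraries and above 0 in all others. Other long members did not all follow the slope. With KCl Slc12a2 ran against it, at 16.8, 21.1 and 13.3 CPM in replicates 1, 2 and 3. Slc12a7, at 16.5, 20.2 and 21.9 CPM, was lowest in replicate 1 and out of order there, though it followed the slope in the floxed group. Exon lengths in GENCODE M21 were 4279 bases for Slc12a4, 22825 for Wnk1, 2389 for Atp1b3, 10920 for Slc12a2, 12669 for Slc12a7 and 3081 for Atp1b1.

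**Figure D3:**
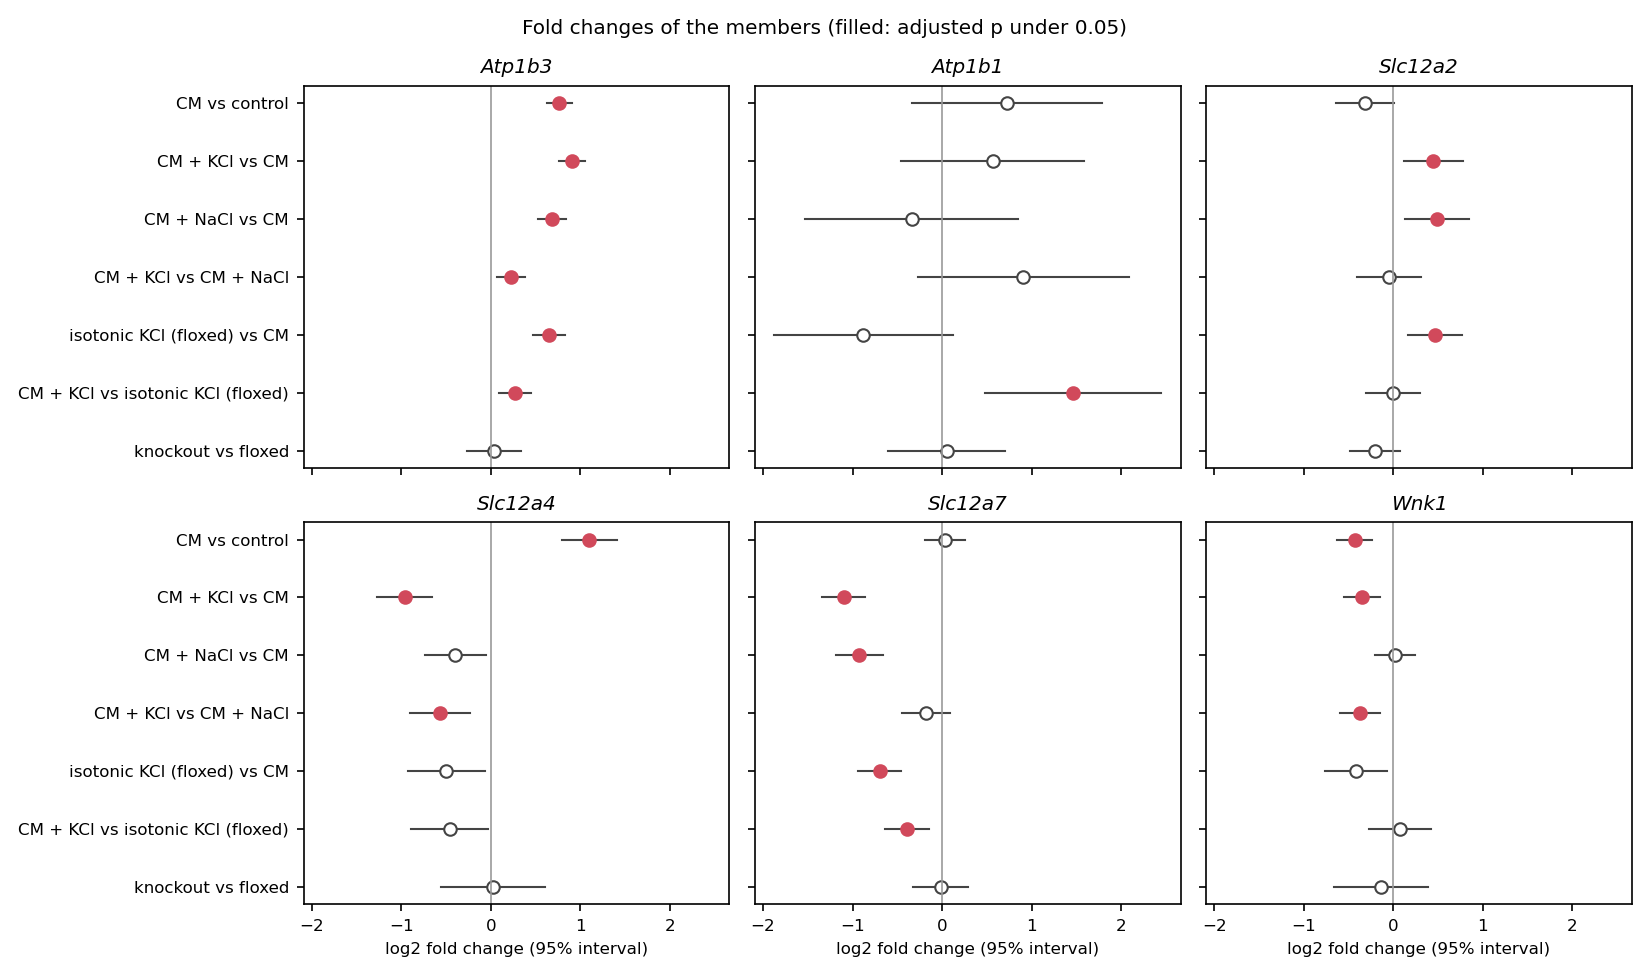
Fitted log2 fold change (x axis) of each gene in the 7 comparisons (y axis; CM, conditioned medium), with the 95% interval as a line. Filled points passed an adjusted p of 0.05. Atp1b3 has filled points to the right of 0 in 6 comparisons, Slc12a7 to the left in 4, and no gene has a filled point between knockout and floxed cells.

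The number of members called is given beside the share of all genes called in the same comparison. With 6 members chosen with earlier results known, nothing is read from the gap between these shares. In conditioned medium against control 53.5% of 14519 genes were called, 27.2% higher and 26.4% lower, and 3 of the 6 members were called, Atp1b3 and Slc12a4 higher and Wnk1 lower. In KCl against conditioned medium 53.9% of genes were called, 26.6% higher and 27.4% lower, and 5 of 6 members, Atp1b3 and Slc12a2 higher and Slc12a4, Slc12a7 and Wnk1 lower. In NaCl against conditioned medium 28.7% of genes were called, 13.7% higher and 14.9% lower, and 3 members, Atp1b3 and Slc12a2 higher and Slc12a7 lower. Between KCl and NaCl 31.6% were called, 15.4% higher and 16.2% lower with KCl, and 3 members, Atp1b3 higher and Slc12a4 and Wnk1 lower. In isotonic KCl (floxed) against conditioned medium 15.3% of 14676 genes were called, 8.2% higher and 7.09% lower, and 3 members, Atp1b3 and Slc12a2 higher and Slc12a7 lower. In KCl against isotonic KCl (floxed) 27.8% were called, 12.3% higher and 15.4% lower, and 3 members, Atp1b1 and Atp1b3 higher and Slc12a7 lower.

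The knockout of Kcnj2 in isotonic KCl left no member past the test. Of 12782 genes tested, 2 (0.0156%) were called between knockout and floxed cells, Kcnj2 among them, and none of the 6 members. No member had an unadjusted p under 0.05 with edgeR, and DESeq2 called none of the 6. The differences on the log2 scale were 0.03 for Atp1b3 (95% interval -0.27 to 0.33), 0.05 for Atp1b1 (-0.60 to 0.70), -0.21 for Slc12a2 (-0.49 to 0.08), 0.03 for Slc12a4 (-0.56 to 0.61), -0.02 for Slc12a7 (-0.33 to 0.29) and -0.14 for Wnk1 (-0.66 to 0.39). The libraries of both genotypes overlapped for every member but Slc12a2. For Slc12a2 the 3 knockout libraries, at 14.5 to 15.0 CPM, all lay below the 3 floxed ones, at 16.6 to 17.4 CPM. Such a separation is not particular to Slc12a2, as the listed genes Fxyd5, Slc9a8, Slc9a9, Oxsr1, Slc4a2 and Slc4a4 also showed no overlap. The share of all genes without overlap was not computed, so nothing is read from it. None of the 34 tested genes of the wider list had an unadjusted p under 0.05 in this comparison.

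Among the other pump genes, the regulator Fxyd2 rose with both hypertonic salts. Fxyd2 rose by 1.00 ± 0.13 on the log2 scale with KCl (edgeR quasi-likelihood adjusted p = 2.77e-05) and by 0.82 ± 0.14 with NaCl (adjusted p = 0.000743), and its 3 conditioned-medium libraries, at 12.3 to 13.3 CPM, lay below the 5 libraries with hypertonic salt, at 20.7 CPM or more. Fxyd5 was lower in conditioned medium (-0.49 ± 0.08, adjusted p = 9.30e-05) and lower again with NaCl (-0.27 ± 0.09, adjusted p = 0.0303), the latter call lost without any single library of either group (-0.29 to -0.24). Of the 18 pump symbols 6 were tested in these fits. With KCl 3 were higher and none lower, with a median log2 fold change of 0.62 beside -0.01 over all genes tested, and with NaCl 3 were higher and 1 lower, with a median of 0.34 beside -0.01. Over all genes 26.6% were higher with KCl and 13.7% with NaCl.

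**Figure D4:**
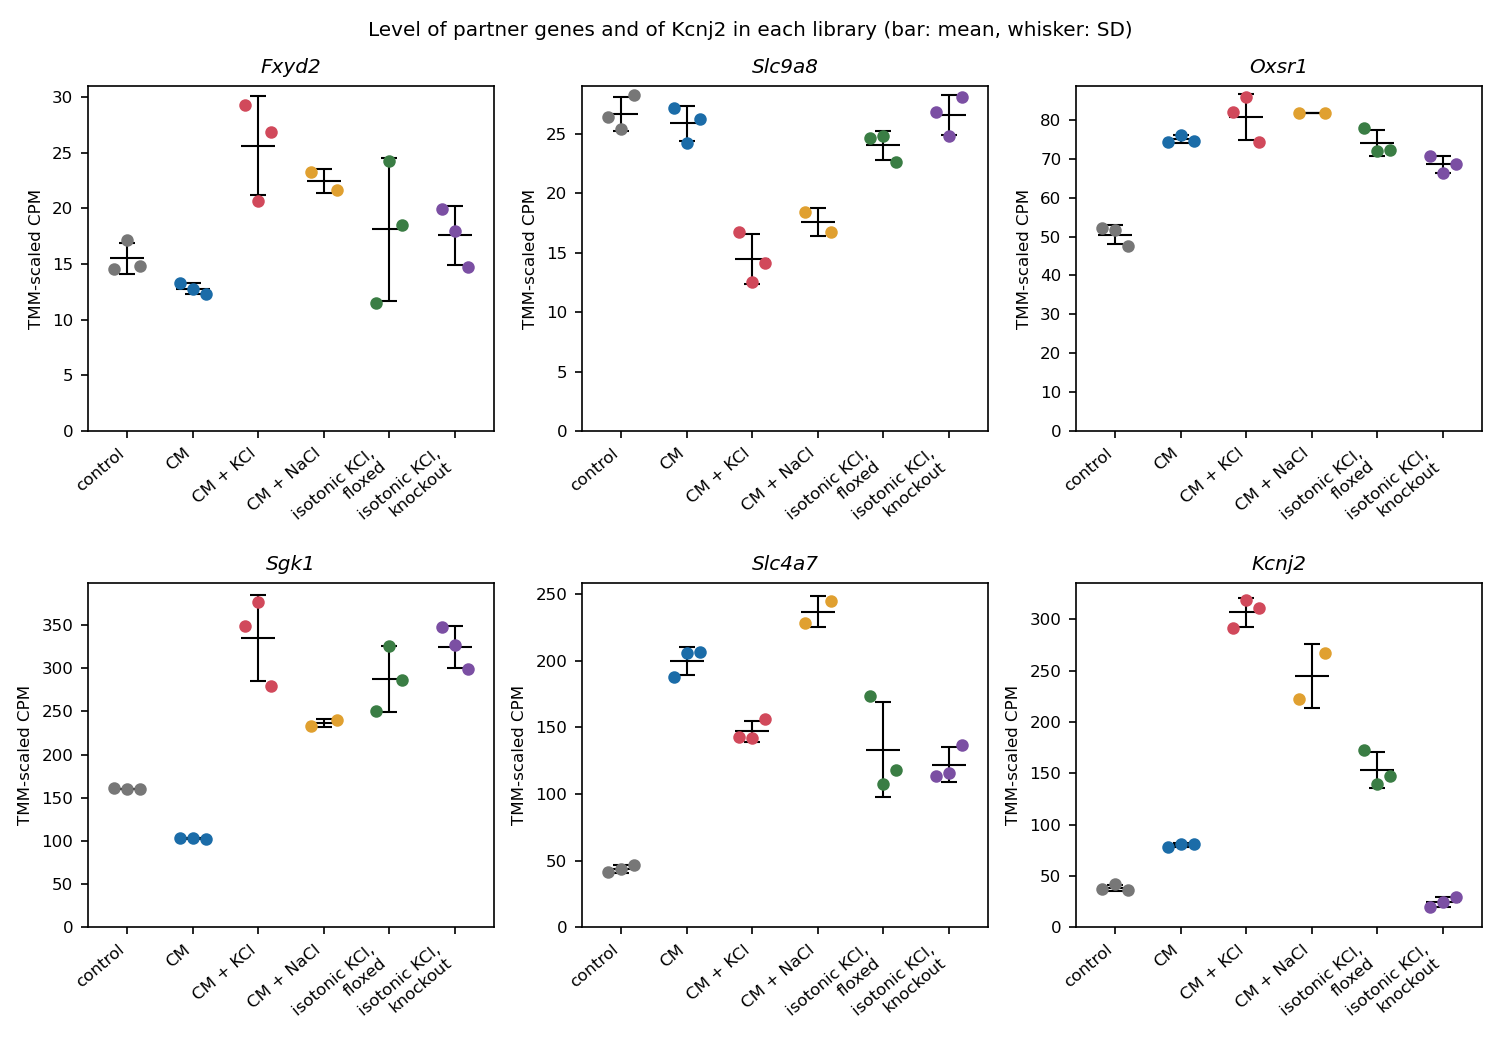
Level of 5 partner genes and of Kcnj2 in every library (y axes, TMM-scaled CPM, linear, from 0) in the 6 groups on the x axis (CM, conditioned medium). Points are libraries, horizontal bars group means and whiskers 1 SD. Slc4a7 is at 41.3 to 46.8 CPM in control and at 108 CPM or more elsewhere, and Kcnj2 is lowest in the knockout libraries, at 19.7 to 29.4 CPM.

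Among the 9 SLC12 cotransporters, 6 were tested in the C57BL/6J fit. With KCl 3 were lower, Slc12a4 and Slc12a7 among them, and 1 higher, Slc12a2, beside 27.4% lower and 26.6% higher over all genes. The median over the 6 tested was -0.23 beside -0.01 over all genes. In conditioned medium 2 were higher, Slc12a4 among them, and 1 lower, Slc12a9 (-0.80 ± 0.11, edgeR quasi-likelihood adjusted p = 4.22e-05). The median there was 0.30 beside -0.04, and over all genes 27.2% were higher and 26.4% lower. The kidney cotransporter Slc12a3 had counts in no group but the floxed, at 0.0594 CPM in its highest library.

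Of the 15 sodium-proton exchanger symbols and partners 12 were tested. Slc9a8, an exchanger of the Golgi, fell with KCl (-0.84 ± 0.11, edgeR quasi-likelihood adjusted p = 3.74e-05) and NaCl (-0.55 ± 0.12, adjusted p = 0.00464; lost without NaCl replicate 2, at -0.49). Slc9a9, an endosomal exchanger, fell in conditioned medium (-0.87 ± 0.09, adjusted p = 1.60e-06) and rose with KCl (0.32 ± 0.09, adjusted p = 0.0077) and NaCl (0.31 ± 0.10, adjusted p = 0.0312). Both rises of Slc9a9 were lost with total-count scaling (0.11 and 0.24) and with no low-count filter (0.30 each), and its NaCl rise was lost also without either NaCl library (0.33 and 0.28) and without conditioned-medium replicate 2 or 3 (0.29 each). Slc9a5 was a low-expressed gene, with means of 3.15 CPM in conditioned medium, 2.08 CPM with KCl and 3.16 CPM with NaCl. It was lower with KCl than in conditioned medium (-0.61 ± 0.20, adjusted p = 0.0168) and than with NaCl (-0.62 ± 0.21, adjusted p = 0.0405). The first of these calls was lost with the slope covariate (-0.63) and without conditioned-medium replicate 1 (-0.49) or KCl replicate 1 (-0.55), and the second without any single KCl or NaCl library (-0.76 to -0.49). The exchanger scaffold Slc9a3r1 (NHERF1) fell in conditioned medium (-0.55 ± 0.12, adjusted p = 0.00167) and again with KCl (-0.55 ± 0.12, adjusted p = 0.00213). Its relative Slc9a3r2 had few counts, 10 to 15 per library in conditioned medium and 17 to 25 with KCl. It fell in conditioned medium (-1.21 ± 0.27, adjusted p = 0.0019) and rose with KCl (0.97 ± 0.29, adjusted p = 0.0115). With the slope covariate the KCl differences of this pair were -0.28 and 0.90 and neither was called. In conditioned medium 6 of the 12 were lower and none higher, with a median of -0.45 beside -0.04 over all genes, of which 26.4% were lower and 27.2% higher. With each salt 3 were higher, and 3 were lower with KCl and 1 with NaCl, beside 26.6% higher and 27.4% lower over all genes with KCl and 13.7% and 14.9% with NaCl.

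In the WNK pathway 11 of 13 symbols were tested. Wnk2 was at most 0.178 CPM and Wnk3 at most 0.452 CPM in any library, so Wnk1 was the main WNK gene, and Wnk4, at 0.105 to 2.76 CPM, was the only other one tested. Wnk4 was higher with KCl than in conditioned medium (1.55 ± 0.56, adjusted p = 0.0318) and than with NaCl (2.51 ± 0.70, adjusted p = 0.0178), and the libraries of the first pair overlapped. With the length slope as a covariate these values were 0.07 and 0.35 and neither was called. The first call was also lost without conditioned-medium replicate 2 (1.57) or 3 (1.29) and KCl replicate 1 (1.38) or 2 (1.26), and the second without KCl replicate 1 (2.33) or NaCl replicate 1 (1.72). Oxsr1 (OSR1) rose with conditioned medium from a mean of 50.5 CPM to 75.1 CPM (0.56 ± 0.08, adjusted p = 2.98e-05). Stk39 (SPAK) stayed between 0.686 and 5.85 CPM and was called in no comparison. Cab39, the scaffold MO25 that activates both kinases, rose with conditioned medium (0.37 ± 0.06, adjusted p = 0.000266) and KCl (0.26 ± 0.06, adjusted p = 0.00416), and both calls were lost with total-count scaling (0.04 and 0.05). Klhl2 and Cul3, parts of the ubiquitin ligase that removes WNK kinases, rose with conditioned medium (0.39 ± 0.09 and 0.54 ± 0.14), the Klhl2 call being lost with total-count scaling (0.05). Klhl2 rose again with KCl (0.29 ± 0.09, adjusted p = 0.0129), a call lost when the length slope entered the fit (0.13), with total-count scaling (0.07), with no low-count filter (0.27), with only the 2 groups (0.28) and without conditioned-medium replicate 1 (0.26) or KCl replicate 1 (0.24). Klhl3 of the same ligase was called lower in conditioned medium, at a mean of 0.0809 CPM against 2.83 CPM in control.

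Sgk1 and Nedd4l, a kinase and the ubiquitin ligase it phosphorylates in sodium transport, both rose with both salts. The control libraries held 160 to 161 CPM of Sgk1 and the conditioned-medium libraries 102 to 104 CPM. The salts took it to 280 CPM or more (KCl) and to 234 and 240 CPM (NaCl), without overlap between these groups. Its log2 fold change was 1.69 ± 0.10 with KCl (edgeR quasi-likelihood adjusted p = 2.00e-08), 1.21 ± 0.10 with NaCl (adjusted p = 2.62e-06) and 1.48 ± 0.11 in isotonic KCl (floxed) against conditioned medium (adjusted p = 1.04e-06). KCl against NaCl gave 0.48 ± 0.10 for Sgk1 (adjusted p = 0.00545). That call was lost with the slope covariate (0.13), with only the 2 groups in the fit (0.49) and without either NaCl library (0.45 and 0.50). Nedd4l rose by 0.87 ± 0.15 with KCl (adjusted p = 0.000365) and by 1.04 ± 0.17 with NaCl (adjusted p = 0.000419). Over the 11 WNK pathway genes, 5 were higher and 2 lower with KCl, 2 higher and none lower with NaCl, and 4 higher and 3 lower in conditioned medium, beside 53.9%, 28.7% and 53.5% of all genes called in these comparisons in turn.

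Among the 5 bicarbonate transporters tested of 10, Slc4a7 (NBCn1), a sodium bicarbonate cotransporter, rose 4.53-fold in conditioned medium (2.18 ± 0.08 on the log2 scale, edgeR quasi-likelihood adjusted p = 6.67e-11). It fell with KCl (-0.45 ± 0.08, adjusted p = 0.000311) and rose with NaCl (0.25 ± 0.09, adjusted p = 0.0439; lost without any single library of either group, 0.19 to 0.31), and the direct difference between the salts was -0.70 ± 0.09 (adjusted p = 0.000454; not called with the slope covariate, at -0.43, or with only the 2 groups in the fit). The anion exchanger Slc4a2 rose in conditioned medium (0.74 ± 0.08, adjusted p = 4.85e-06). Slc4a3 was low, with means of 3.54 CPM in conditioned medium, 1.15 CPM with KCl and 1.41 CPM with NaCl. It fell with KCl (-1.56 ± 0.41, adjusted p = 0.00548, and -0.47 without a call with the slope covariate) and NaCl (-1.32 ± 0.44, adjusted p = 0.0375). Its NaCl call was lost without conditioned-medium replicate 2 (-1.29) or 3 (-1.04) and without either NaCl library (-1.69 without replicate 1).

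**Figure D5:**
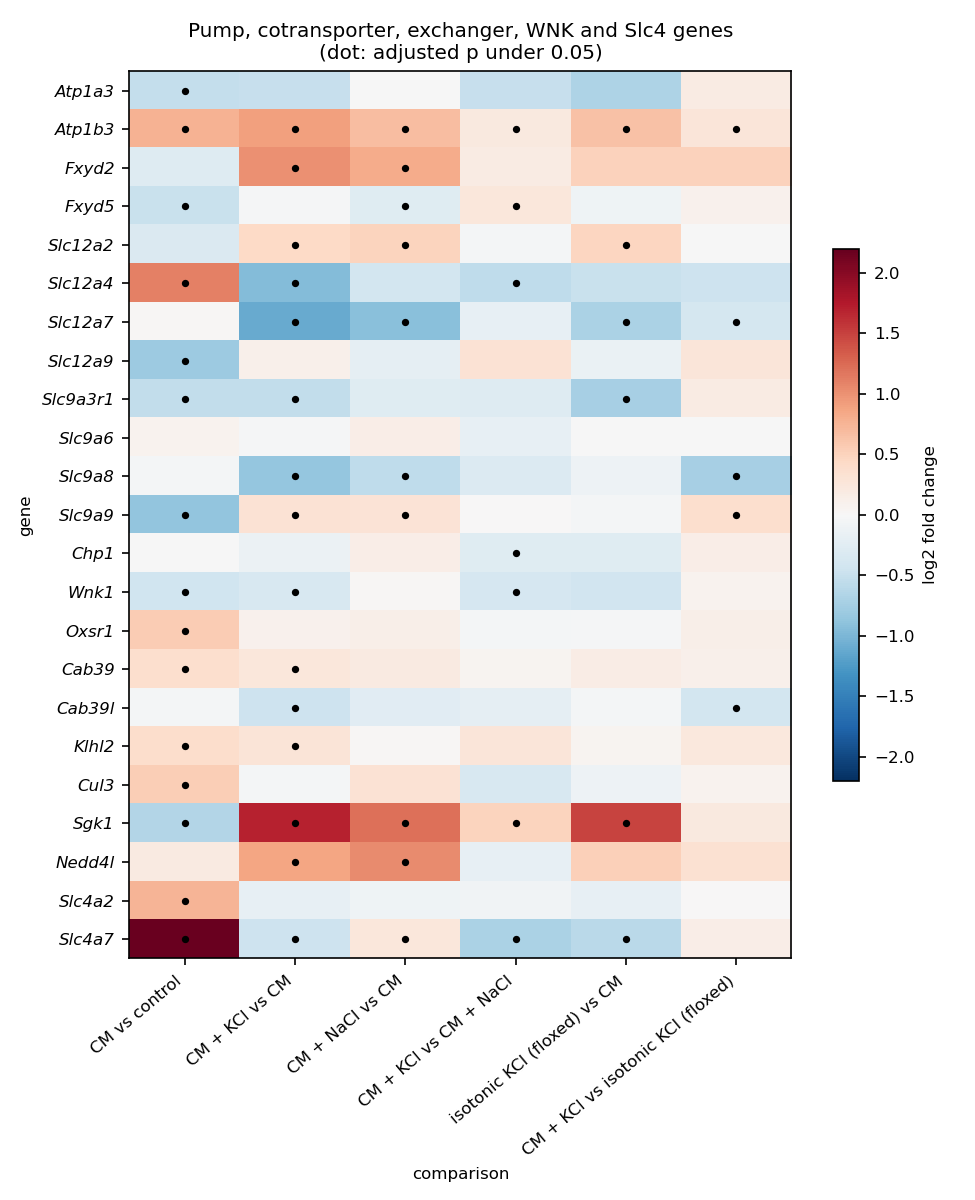
Log2 fold change (colour) of 23 listed genes that reach a group mean of 10 CPM (rows), in the 6 comparisons other than the knockout (columns; CM, conditioned medium). A dot marks an adjusted p under 0.05. Atp1b3 and Sgk1 are red in the 3 columns that add a salt to conditioned medium, and Slc12a7 is blue there, from -1.10 to -0.70.

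Over all 65 symbols, 40 were tested in the C57BL/6J fit. Of these 9 were higher and 12 lower in conditioned medium, where 53.5% of all genes were called, and 12 higher and 10 lower with KCl, where 53.9% were called. With NaCl 10 were higher and 4 lower, beside 28.7% of all genes, and 5 were higher and 6 lower with KCl than with NaCl, beside 31.6%. In the fit of all 17 libraries 41 were tested, with 3 higher and 3 lower in isotonic KCl (floxed) than in conditioned medium (15.3% of all genes called), and 6 higher and 4 lower with KCl than with isotonic KCl (27.8%). Most of these counts lie near the share over all genes.

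The order of the 6 group means differed from gene to gene. For Atp1b3 it ran from KCl (1016 CPM) through knockout, NaCl and floxed (863 to 845 CPM), 3 neighbours that overlapped, to conditioned medium (538 CPM) and control (316 CPM), and the other steps had no overlap. For Slc12a7 it ran from conditioned medium and control (41.6 and 40.5 CPM, overlapping) to floxed and knockout (25.7 and 25.2 CPM, overlapping) and to NaCl and KCl (21.9 and 19.5 CPM, overlapping). For Wnk1 control (240 CPM) came first, then NaCl and conditioned medium (180 and 178 CPM, overlapping), then KCl, floxed and knockout (141, 134 and 121 CPM, overlapping). Slc12a4 was highest in conditioned medium (106 CPM), and every pair of neighbours below it, from NaCl to control, overlapped. Slc12a2 ran from NaCl, KCl and floxed, all between 17.1 and 17.3 CPM and overlapping, to conditioned medium at 12.4 CPM. For Atp1b1, of the neighbours in its order only NaCl and control did not overlap.

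Genes whose levels ran most alike were found by Pearson's r of log2(CPM + 0.5) over the 17 libraries among 8691 genes, as a description in which all genes share libraries, groups and depth. For Atp1b3 they were Slc25a37, Rdh13 and Rnf11 (r of 0.99 each). For Slc12a4 they were Xpnpep1, Pik3ap1 and Il2rg (0.97 each), for Slc12a7 Pitpnc1, Fmnl1 and Kctd17 (0.97, 0.96 and 0.96), and for Wnk1 Sptbn1, Arrb1 and Zbtb4 (0.98 each). For Slc12a2 the closest were Mrc1, Clcn4 and Mycbp2 (0.83, 0.82 and 0.81), and for Atp1b1 Fgfrl1, Cand1 and Cmtm4 (0.77, 0.76 and 0.73), lower than for the more abundant genes.

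Markers of other cell types moved with some of these groups. The summed neutrophil list, with 9 of 10 genes detected and Retnlg at 0 throughout, ran from 63.4 to 66.5 CPM in the control and NaCl libraries and from 166 to 181 CPM in conditioned medium. With KCl it was 44.6 to 52.3 CPM, and in the isotonic libraries 118 to 174 CPM. Csf3r in it ran from 16.8 to 160 CPM over the libraries, while Ly6g had at most 1 count in a library. The fibroblast list (6 of 6 genes) was at 480 to 682 CPM in control and conditioned medium, 463 to 519 with NaCl, 285 to 452 with KCl, 237 to 479 in the floxed and 166 to 229 in the knockout libraries. Of the 7 melanoma genes Tyr and Dct were at 0 in every library, and Mitf, at 66.1 to 237 CPM, made up nearly all of the sum of 67.3 to 237 CPM. The dendritic cell list (4 of 4) ran from 1.42 to 7.23 CPM outside the KCl group and from 15.5 to 22.4 CPM in it, and T and B cell lists were at most 0.786 and 1.82 CPM. Of the dendritic cell list Xcr1 alone reached 21 CPM. The other genes were low in every library, with Zbtb46 at most 2.46 CPM, Flt3 at most 0.229 CPM and Siglech at most 0.0459 CPM. The part of these cell types in the results above was not tested.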

How the data were processed

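The authors deposited raw counts per Ensembl mouse gene, in 17 columns that each carry the title of a sample. Per the submitters' processing notes DESeq2 1.30.1 is among the tools, without a role. Aligner, counter, genome build and strand setting: not given in the sources used here. Symbols, positions and exon lengths came from GENCODE M21 (GRCm38), and 260 identifiers without a symbol (0.0121% of counts) were kept. The exon length of a gene joins the exons of all its annotated transcripts.

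Differences between groups were tested on these counts by edgeR 4.0.16 (R 4.3.3; robust quasi-likelihood F test on TMM-scaled libraries, after filterByExpr with default settings), with Benjamini-Hochberg adjustment over all genes tested and a threshold of 0.05. One fit held the 11 C57BL/6J libraries, another the 6 isotonic libraries, and a fit of all 17 gave the comparisons across strains, in which strain and medium cannot be told apart. In simulated counts the test recovered 198 to 200 of 200 genes changed 2-fold, in 3 of the comparisons. Only genes with many counts were changed, every gene had the same small spread, and replicates did not differ in length slope. The wider spread of the KCl, floxed and knockout libraries was not simulated, so this recovery does not measure what the test can detect there. Replicates are not stated to be separate animals or cultures. The p-values then describe the spread of these samples, and that spread may be technical. The chi-square per degree of freedom between replicates was 2.05 to 133, so none was treated as a repeat. It was 25.3 to 133 between KCl or between floxed libraries and 2.05 to 5.47 between control, conditioned-medium or NaCl libraries, and a fit shared by these groups assumes 1 spread per gene.

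The members, the gene lists and the rules were chosen with earlier results of these data known. The naming rule takes the 6 members, Kcnj2, listed genes called in at least 2 of the 4 C57BL/6J comparisons, and those a result turns on. Slc12a9, Slc12a3, Slc4a2, Klhl3, Cul3, Stk39, Oxsr1, Wnk2 and Wnk3 were named beyond or at the edge of that rule, after their values were seen. Alternatives were RLE and total-count scaling, no or a stricter low-count filter (a mean of 20 counts, with 1 CPM reached in 3 libraries), DESeq2 1.42.0, a replicate block, the length slope as a covariate, only the groups compared, and each library left out in turn. Some listed genes are counted in the lists but not reported here by name.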

Additional observations from a re-analysis of the deposited data

How the results depend on the processing

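Of the calls on members, those of Atp1b3 (conditioned medium, KCl, NaCl and isotonic KCl), Slc12a4 (conditioned medium and KCl), Slc12a7 (KCl, NaCl and isotonic KCl) and Wnk1 (conditioned medium) kept direction and side of the threshold under every alternative run. Over all member results 49 values lost a call and 16 gained one with the direction kept. A further 2 lost the call and changed sign, Slc12a4 and Wnk1 for KCl against NaCl with the slope covariate. In 1 more, Slc12a7 for conditioned medium against control with total-count scaling, the sign changed and a call was gained. The cause of each change was not tested. Total-count scaling moved the median log2 fold change of all genes by -0.34 for conditioned medium against control, -0.21 for KCl and -0.17 for isotonic KCl against conditioned medium, and -0.14 for KCl against NaCl. With it the share of higher calls went from 50.8% to 24.9%, 49.3% to 32.6%, 53.6% to 26.1% and 48.6% to 30.1% in these comparisons, from 48% to 37% for NaCl against conditioned medium, and from 50% to 33.3% for the knockout. Members called in conditioned medium then numbered 5 and Slc12a7 turned to -0.30, and the highest and lowest group were unchanged for 3 of 6 members. With the length slope as a covariate KCl against conditioned medium had 3 members and 14 listed genes called. KCl against NaCl then had 211 genes, 0 members and 0 listed genes, with Slc12a4 and Wnk1 turned to 0.034, the knockout 913 genes, isotonic KCl against conditioned medium 11 listed genes, and KCl against isotonic KCl 6722 genes and 23 listed genes. With only the 2 groups compared, NaCl against conditioned medium had 6245 genes called, KCl against NaCl 8 genes with 0 members and 0 listed genes, isotonic KCl against conditioned medium 411 genes and 3 listed genes, and KCl against isotonic KCl 1218 genes, 0 members and 1 listed gene. The knockout had 12 genes called with no low-count filter and 177 with DESeq2. Whether replicate numbers pair the samples is not stated in the labels and was not settled by the residuals. Among the C57BL/6J libraries residuals correlated above 0.1 in 4 of 15 pairs with the same number (highest r 0.194). With other numbers it was 1 of 30 (highest r 0.102), so a partial pairing there is possible. Among the isotonic libraries it was 1 of 3 pairs with the same number and 3 of 6 with other numbers. With the replicate block the knockout had 0 genes called and NaCl against conditioned medium 2 members, Slc12a2 losing its call (0.43, adjusted p = 0.0629, range over alternatives 0.00184 to 0.261). Leaving out 1 library at a time gave these ranges of genes, members and listed genes called. They were 6755 to 6867, 3 to 4 and 19 to 22 for conditioned medium against control, 6809 to 8840, 4 to 5 and 18 to 25 for KCl, 2224 to 3465, 2 to 2 and 7 to 11 for NaCl, and 960 to 6989, 0 to 3 and 2 to 19 for KCl against NaCl. For the knockout they were 0 to 14, 0 to 0 and 0 to 0, for isotonic KCl against conditioned medium 1081 to 5589, 2 to 5 and 4 to 14, and for KCl against isotonic KCl 3120 to 4365, 0 to 4 and 5 to 14. The 5589 came without floxed replicate 1, the 6989 without KCl replicate 3 and the 960 without NaCl replicate 2. With the counts of Atp1b1, 12 to 80 per library, small differences were not detectable.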
